A study of Mus musculus with 4 samples.

Results

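The genes described here are the ion channel genes of the mouse hippocampus whose symbols mark a potassium channel subunit (Kcn), a sodium channel subunit (Scn), a calcium channel pore (Cacna1) or a hyperpolarization-activated channel (Hcn). They were taken by symbol alone, with Kcnj10 left out, and kept where at least 50 unique molecular identifiers (UMIs, 1 per captured transcript) were counted over the 4 libraries. Of 126 matching symbols 90 passed, among 14361 genes in all that reached the same minimum. They held 52 (Kcnk6) to 32369 UMIs each; Kcna5, Kcnu1 and Kcne2 lay just under the minimum with 45, 42 and 41. The largest groups were the silent Kv subunits and the inward rectifiers with 9 genes each, the two-pore potassium channels with 8, the Kv10 to Kv12 channels with 7 and the sodium channel pores with 6. The working name for the set was voltage-gated channels, which fits only part of it: inward rectifiers (Kcnj), two-pore leak channels (Kcnk), calcium-activated SK channels (Kcnn), the auxiliary subunits and 3 antisense RNAs (Kcnq1ot1, Kcnd3os, Kcnmb4os2) are not voltage-gated pores. Scn2a1 is the older symbol of Scn2a and was counted under the sodium channel pattern; 89 genes remain without it. Kcnk9 and Hcn4 fell further under the minimum, with 35 and 16 UMIs.

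Sodium channels carry the rising phase of the action potential, and the potassium channels end it and set how soon the next can follow. Kv3 channels (Kcnc) open at strong depolarization and close fast, which lets parvalbumin interneurons fire at high rates. Kv4 channels (Kcnd) with their KChIP (Kcnip) partners carry the dendritic A-type current of pyramidal cells, Kv7 channels (Kcnq) carry the M-current that brakes repetitive firing, and HCN channels carry the inward current that follows hyperpolarization. Calcium channels of the P/Q, N and R types drive transmitter release, L-type channels couple to gene expression and T-type channels support bursts. In glia and vessels the potassium channels best known are inward rectifiers and leak channels, which set a negative resting potential.

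The data were droplet-based single-nucleus RNA sequencing of frozen hippocampi from B6 mice aged 9 months. WT (7 hippocampi), EKO (7 hippocampi, without Apoe), P301S (8 hippocampi, carrying a human tau transgene) and P301S/EKO (7 hippocampi, with the transgene and without Apoe) were each pooled into 1 library. The labels do not name the transgene's line or promoter, so the cells that express it are not known from them. The other genotypes of the series were not analysed here. A pool is 1 sample, so a difference between genotypes has no replicate check and no p-value is given for one. A difference between cell classes is repeated in the 4 pools and was tested over them, and the spread there includes genotype.

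The libraries held 3156 to 6767 barcodes and 8369762 to 14251675 UMIs, with a median of 1394 to 2152.5 UMIs per barcode. The libraries without Apoe were the shallower ones, at 1443.5 (EKO) and 1394 (P301S/EKO) against 1901 (WT) and 2152.5 (P301S), so depth moves with Apoe genotype. After filters 18567 nuclei remained, and 183 of their 18381 distinct barcode sequences occurred in at least 2 libraries. Apoe followed the labels: over all nuclei it stood at 1899 CPM (UMIs of the gene per 1000000 UMIs of the class) in WT and 6489 in P301S, against 16.2 in EKO and 19.8 in P301S/EKO. The labels do not say which part of the gene was deleted. Clusters were built without the channel genes and named from marker genes, and each class name below stands for "like" that cell. They gave 3194 dentate granule, 2167 CA1, 1636 CA2 or CA3, 4673 subicular or cortical excitatory and 2087 inhibitory neurons, 815 astrocytes, 1016 oligodendrocytes, 312 oligodendrocyte precursors, 1020 microglia, 492 endothelial and 69 choroid plexus nuclei. A cluster of 1086 nuclei led by Dcn and Gh stayed unnamed and entered only the sum of all neurons, to which the glial and endothelial classes are compared. In the subicular or cortical class 1 cluster of 795 nuclei also carried the pituitary transcripts Prl and Gh among its leading genes, and the endothelial class carried the mural marker Rgs5 among its leading genes. Neuronal transcripts were high in a large share of glial nuclei, called mixed here where they reached more than 50% of the CA1 median: 42.6% to 78.5% of microglia, 46.4% to 70.3% of oligodendrocytes, 13.5% to 55.9% of oligodendrocyte precursors, 8.07% to 29.5% of endothelial nuclei and 0.505% to 20.8% of astrocytes, with WT the highest library in each.

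**Figure D1:**
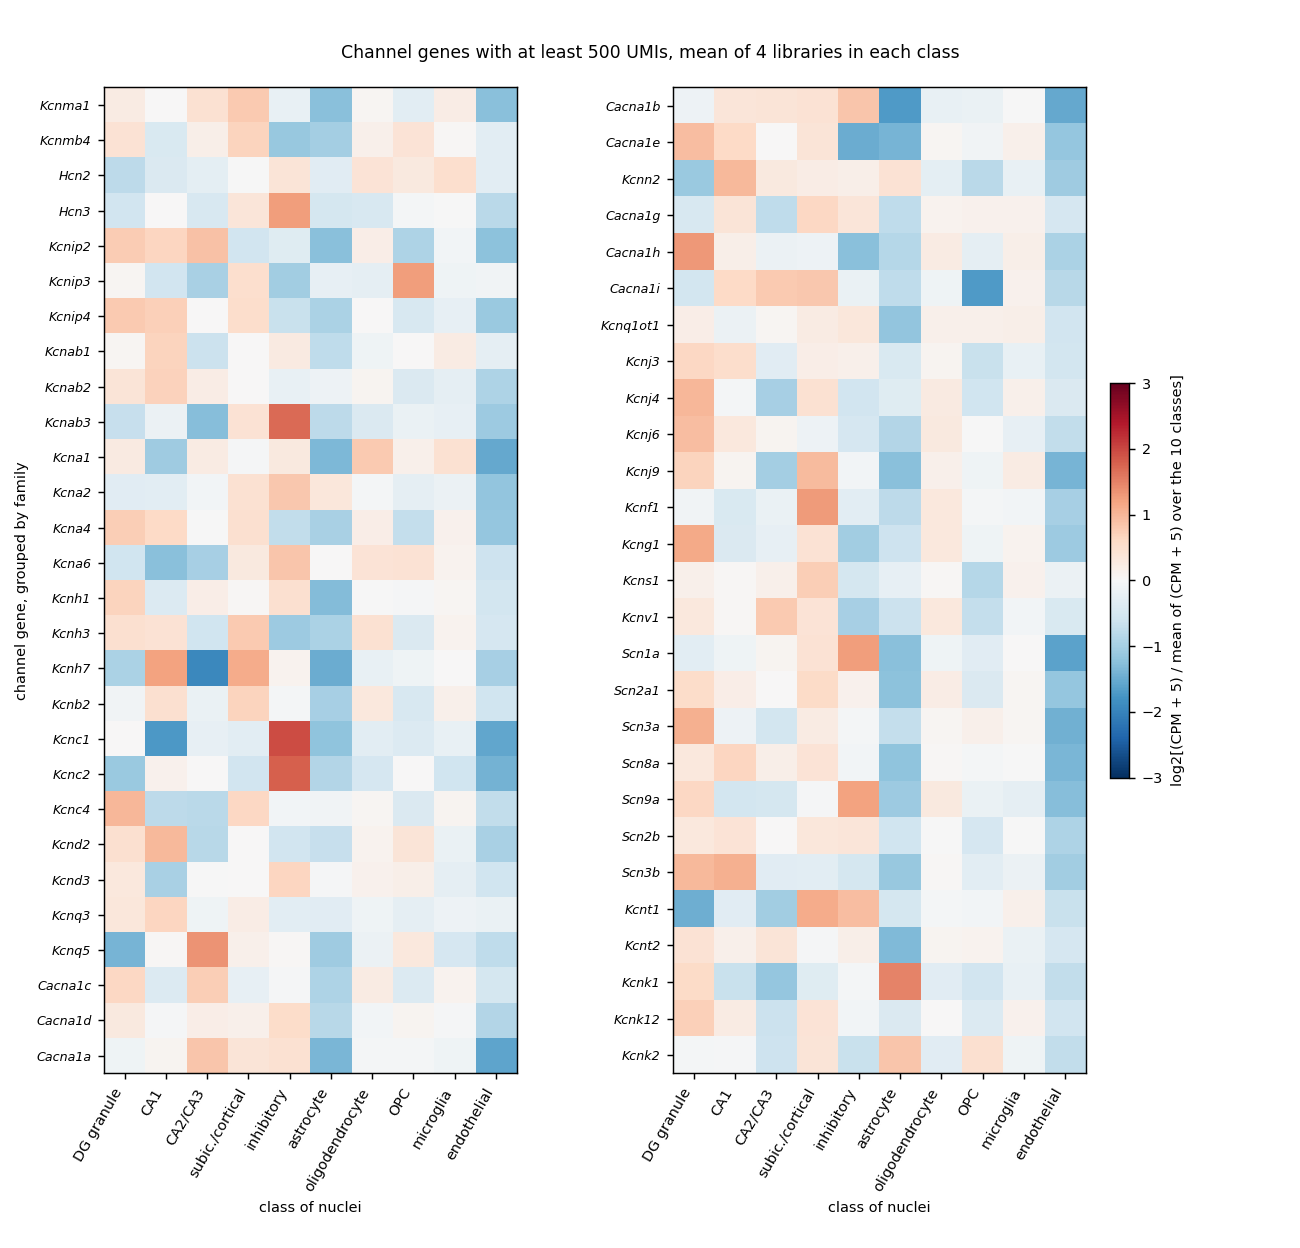
Level of 55 channel genes with at least 500 UMIs in 10 cell classes, each square the mean CPM over libraries, drawn as log2 of (CPM + 5) over the gene's mean across classes. Rows are genes and columns classes; Kcnc1, Kcnc2 and Kcnab3 are highest in inhibitory neurons among the neuron classes, and most rows are low in astrocytes and endothelial nuclei.

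Inhibitory and excitatory neurons differed in most of the channel genes tested. The HCN genes Hcn2 and Hcn3, the Kv3 pores Kcnc1 and Kcnc2 and the sodium channel pore Scn1a were higher in inhibitory neurons, while the R-type calcium pore Cacna1e, the Kv2 pore Kcnb2 and 3 of the 4 KChIP genes were lower. Of 90 genes 77 had enough counts to be tested; 20 were higher and 32 lower. Higher or lower means an adjusted p under 0.05 in edgeR's quasi-likelihood test with the library as a block (n = 4 libraries, Benjamini-Hochberg over all genes) and at least 1.5-fold. Over all 11309 genes tested, 10.5% were higher and 11.3% lower by the same rule. The median log2 difference was -0.37 over the tested channel genes and 0.01 over all genes. Classes were built from other genes of the same nuclei, so they are not independent of them.

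Kcnc1, the Kv3 pore of fast-spiking cells, stood at 538.8, 685.2, 569.6 and 599.2 CPM in the inhibitory neurons of WT, EKO, P301S and P301S/EKO. In excitatory neurons the same libraries gave 95.4, 117.6, 121.4 and 114.1 CPM. The lowest inhibitory value was far above the highest excitatory one, a difference of 2.28 ± 0.07 on the log2 scale (SE, edgeR adjusted p = 8.84e-22, 4.87-fold). Kcnc2, its close relative, was 4.56-fold higher at 103.2 to 130.1 against 19.1 to 25.8 CPM. Kcnc4, another Kv3 pore, was 1.54-fold lower, a call lost in 2 of the 4 fits that each left out 1 library.

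The largest fold among the higher genes was that of Kcnmb2, a beta subunit that inactivates the large-conductance calcium-activated (BK) channel. It stood at 36.1 to 40.6 CPM in inhibitory and 0.910 to 3.12 CPM in excitatory neurons, 20.1-fold apart (log2 4.33 ± 0.25, edgeR adjusted p = 2.13e-14). The other BK genes went the opposite way: the pore Kcnma1 was 1.80-fold lower and the neuronal beta subunit Kcnmb4 4.18-fold lower in inhibitory neurons. Kcnip1 was 10.1-fold higher, whereas the other KChIP genes Kcnip2, Kcnip3 and Kcnip4 were 1.94-fold, 2.72-fold and 2.80-fold lower. Their Kv4 pores were split too, with Kcnd3 1.65-fold higher and Kcnd2 2.03-fold lower. The silent subunit Kcns3 was 6.05-fold higher, and 5 other silent subunits were lower, Kcng1 the most at 6.06-fold (1.20 to 3.79 against 11.2 to 18 CPM).

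Among the remaining potassium channels, the Kv7 gene Kcnq3, a subunit of the M-channel, was 1.75-fold lower in inhibitory neurons. Kcnh2, a Kv11 pore, was 4.25-fold higher, and Kcnh3, a Kv12 pore, 4.13-fold lower. Of the Kv1 group, Kcna6 and Kcna2 were higher (2.28-fold and 1.58-fold) and Kcna4 was 2.81-fold lower. Kcnab3, a cytoplasmic beta subunit of Kv1 channels, was 3.84-fold higher at 69.9 to 110.0 against 17.8 to 26.1 CPM. Kcnb2, a Kv2 pore of delayed-rectifier channels, was 1.52-fold lower. The G-protein-gated rectifiers Kcnj6 and Kcnj9 were lower as well, by 2.07-fold and 1.63-fold.

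Scn1a stood at 289.7, 296.1, 272.7 and 271.9 CPM in inhibitory neurons of WT, EKO, P301S and P301S/EKO, and at 135.5, 125.5, 124.5 and 119.2 CPM in excitatory neurons. No library overlapped between the 2 classes (2.04-fold, log2 1.03 ± 0.07, edgeR adjusted p = 3.47e-13). Scn9a was 2.65-fold higher, Scn8a, the main pore of the pyramidal axon initial segment, 1.55-fold lower, and the beta subunit Scn3b 2.06-fold lower. Scn2a1 differed by -0.40 ± 0.07 on the log2 scale, which passed the p but not the fold. Hcn3 and Hcn2 were 2.63-fold and 1.56-fold higher. Cacna1e was 4.45-fold lower in inhibitory neurons (40.2 to 113.0 against 241.1 to 340.7 CPM) and the T-type pore Cacna1h 3.59-fold lower. Neither L-type gene was called, and the P/Q pore Cacna1a differed by -0.05 ± 0.07 on the log2 scale. With 1 library left out at a time, 10 of the 52 calls missed the p or the fold at least once: Kcnn3, Kcnj12, Kcnmb4os2 and Kcnk12 in 3 fits, Kcnc4, Kcnb2 and Kcnt1 in 2, and Hcn2 (without P301S), Kcna2 (without EKO) and Kcnh7 (without WT) in 1.

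**Figure D2:**
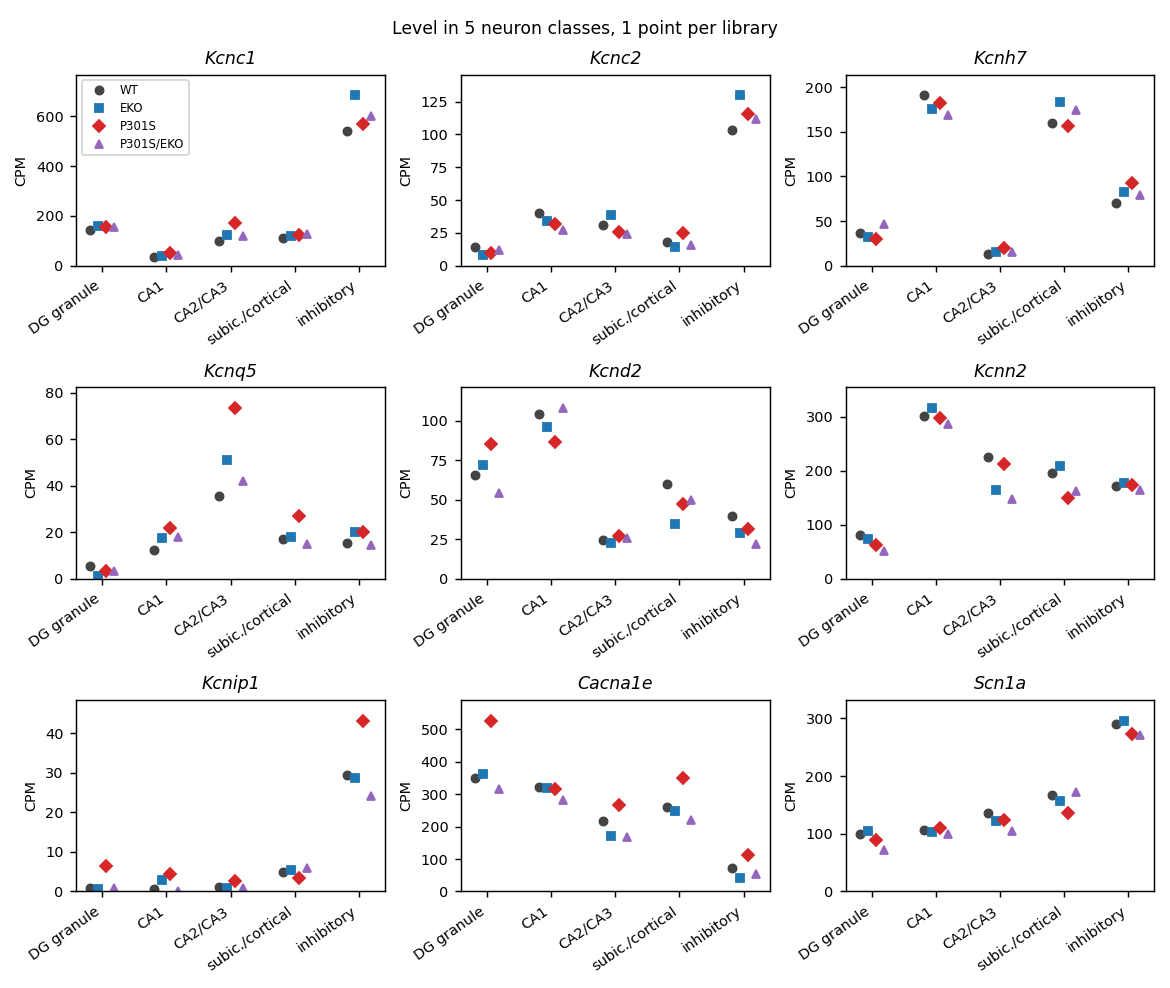
CPM of 9 channel genes (1 panel each) in 5 neuron classes, with 1 point per library. Kcnc1 and Scn1a points of the inhibitory class lie above all others, Kcnh7 points are high in CA1 and subicular or cortical neurons alike, and Kcnn2 is lowest in dentate granule neurons.

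Kcnc1 and Scn1a were both higher in inhibitory neurons, so the DNA around their start sites is shown, as RefSeq gives it on build GRCm38.p6: 300 bases, from 250 before to 50 after the start. The Kcnc1 window is chr7:46396218-46396517 on the plus strand and the Scn1a window chr2:66440788-66441087 on the minus strand. They were chosen after the levels were seen, from genes high in inhibitory neurons that have 1 listed start. Capitals mark the GC box GGGCGG or its reverse complement.
Kcnc1: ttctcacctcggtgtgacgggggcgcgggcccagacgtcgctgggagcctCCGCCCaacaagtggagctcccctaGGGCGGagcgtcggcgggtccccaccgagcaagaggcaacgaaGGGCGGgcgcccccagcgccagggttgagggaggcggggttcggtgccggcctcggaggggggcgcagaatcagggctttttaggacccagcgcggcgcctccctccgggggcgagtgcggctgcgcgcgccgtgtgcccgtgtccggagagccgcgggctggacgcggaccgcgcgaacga
Scn1a: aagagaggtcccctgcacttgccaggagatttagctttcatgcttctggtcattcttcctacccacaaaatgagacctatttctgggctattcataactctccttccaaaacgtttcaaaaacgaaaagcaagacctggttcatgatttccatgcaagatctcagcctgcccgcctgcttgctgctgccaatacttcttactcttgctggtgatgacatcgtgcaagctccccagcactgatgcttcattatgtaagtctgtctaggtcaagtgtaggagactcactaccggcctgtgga
The Kcnc1 window held 3 GC boxes and the Scn1a window 0, so of the 2 windows only the first has these letters. RefSeq promoters matched 62 of the 90 genes, with 90 start windows. GGGCGG on either strand was in 43.3% of those windows and in 35.7% of all 32851 windows. TATAAA on either strand was in 6.67% against 13.6%. TTCAGCACC, the left part of the RE1 site that the neuronal repressor REST binds, was in 0 of 90 windows and 0.371% of all. These are matches of letters, not sites.

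Within the inhibitory class, Kcnc1, Kcnab3, Kcna1 and Kcnip2 were higher in parvalbumin (Pvalb) interneurons than in the 2 other subtypes compared, in every library. The 3 marker-named subtypes compared were 553 Pvalb, 481 Sst and 489 Vip or Cck interneurons, read over the 42 channel genes with at least 100 UMIs. As a description without a test, a gene was counted for a subtype where each of its 4 libraries exceeded every library of the other two. Pvalb interneurons had 12 such genes (all genes: 3.10%), Vip or Cck interneurons 4 (all genes: 3.02%) and Sst interneurons 1 (all genes: 1.41%).

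Kcnc1 reached 1043, 1244, 1012 and 1075 CPM in Pvalb interneurons of WT, EKO, P301S and P301S/EKO, 2.60 times the next subtype. Kcnip2, a KChIP lower in the inhibitory class as a whole, was 5.08 times the next subtype in Pvalb interneurons, at 108.0 to 166.3 CPM. Kcnab3 and its Kv1 partner pore Kcna1 were 4.37 and 2.82 times the next. Further Pvalb genes were Kcnc2, Kcnk1, Kcnma1 and the sodium channel pores Scn1a and Scn8a. The 2 sodium pores overlapped Lamp5 interneurons. Scn1a was at 336.1 to 373.0 CPM in Pvalb and 169.1 to 337.1 CPM in Lamp5 interneurons, and Scn8a at 210.6 to 257.7 and 198.1 to 216.7 CPM. In Vip or Cck interneurons Kcnn2, an SK channel, stood at 278.1 to 324.6 CPM, 3.41 times the next of the 3 subtypes. It is not particular to them: the few Lamp5 interneurons held Kcnn2 at 302.9, 674.1, 558.1 and 264.1 CPM in WT, EKO, P301S and P301S/EKO. Kcnd3 and Scn3a were also in that group, with Lamp5 values that overlapped theirs, and the L-type pore Cacna1c was the 1 gene of Sst interneurons (46.3 to 64.2 CPM; Lamp5 0 to 152.2 CPM). The named Lamp5 interneurons, 112 nuclei in all with 18 to 34 per library, were too few for this comparison. A further 2 subclusters of 196 and 256 inhibitory nuclei had no name and did not enter it. The subcluster of 256 nuclei was led by Lamp5 and matched Lamp5 interneurons best, but 2 markers were up where 3 were needed. Its channel values were not compared, so Lamp5 nuclei are only partly covered here.

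**Figure D3:**
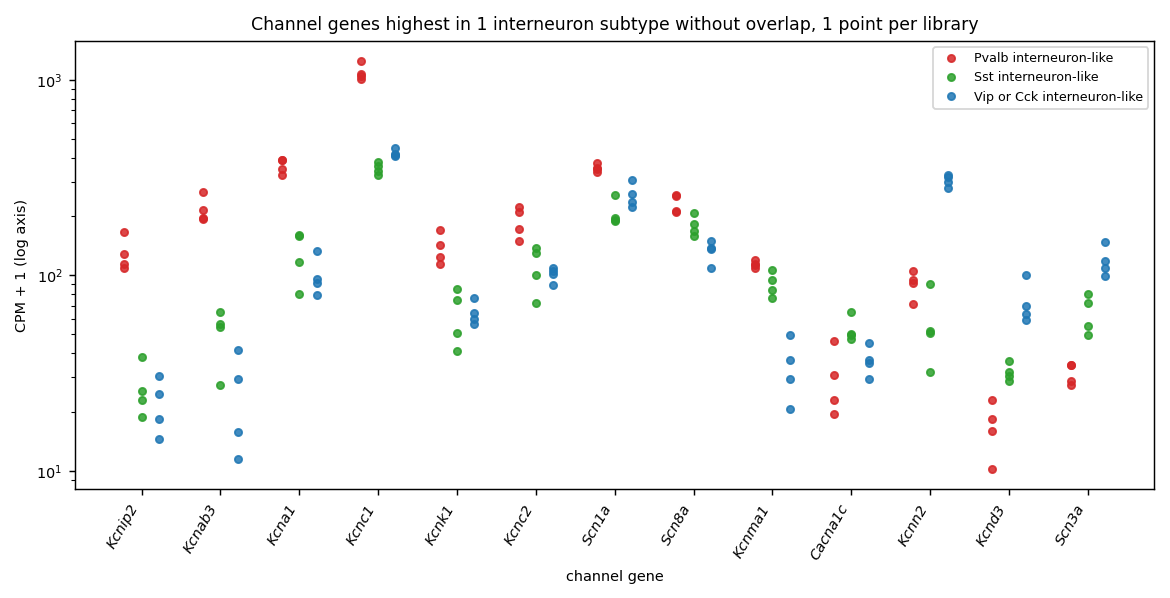
CPM + 1 on a log axis of 13 channel genes that were highest in 1 of the 3 interneuron subtypes compared, without overlap. Each has 1 point per library and a colour per subtype. Lamp5 interneurons are not drawn, and for Kcnn2 they reached 674.1 CPM in EKO. The 9 Pvalb genes, the 1 Sst gene and the 3 Vip or Cck genes drawn each show 4 points above all points of the other two subtypes.

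Dentate granule neurons differed from CA1 neurons by more RNA of Kcnc4, Kcnc1, Kcnd3 and the inward rectifier Kcnj4 and by far less of Kcnh7, Kcnq5 and Kcnn2. Of 62 genes tested 18 were higher (9.02% of all genes) and 13 lower (9.78% of all genes) in edgeR's test; the median log2 difference was 0.03 over the channel genes and 0.01 over all. Kcnn2, the SK channel, was at 81.5, 74.1, 62.2 and 51.9 CPM in dentate granule neurons of WT, EKO, P301S and P301S/EKO and at 301.8, 316.1, 297.1 and 287.1 CPM in CA1 neurons. The classes did not come near each other in any library (4.74-fold, log2 -2.25 ± 0.10, edgeR adjusted p = 3.45e-43). Kcnh7, a Kv11 pore, was 5.16-fold lower, at 29.4 to 46.9 against 168.3 to 191.1 CPM, and Kcnq5 5.49-fold lower on only 13 UMIs in dentate granule neurons.

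The Kv3 genes Kcnc4 and Kcnc1 were higher in dentate granule neurons, by 4.62-fold and 3.42-fold. Kcnc2 was 3.23-fold lower. Kcnd3 was 2.86-fold higher and Kcnd2, another Kv4 pore, 1.64-fold lower. The silent subunit Kcng1 was 3.97-fold higher. The rectifiers Kcnj6 and Kcnj9 were each 1.51-fold higher, but DESeq2 called neither (adjusted p = 0.0986 and 0.0667), and Kcnj9 in P301S was at 81.8 CPM against 85.1 CPM in CA1 neurons. Sodium pores Scn9a and Scn3a were 2.52-fold and 2.16-fold higher, and neither Scn1a nor Scn8a was called. The T-type genes were split, with Cacna1h 2.08-fold higher and Cacna1g and Cacna1i 2.77-fold and 3.27-fold lower. Leaving out 1 library ended the call of Kcna6 in all 4 fits, of Kcnj6 and Kcnj9 in 2 fits, and of Kcnab3 and Kcnip3 (without EKO) and Kcnd2 (without P301S/EKO) in 1.

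CA2 or CA3 neurons had far less Kcnh7 and Kcnd2 RNA than CA1 neurons and more of the pores Kcnc1, Kcna1 and Cacna1a. Of 60 genes tested 10 were higher (8.04% of all genes) and 18 lower (6.7% of all genes); the median log2 difference was -0.15 against -0.01 over all. Kcnh7 stood at 13.1, 15.7, 20.04 and 15.1 CPM in WT, EKO, P301S and P301S/EKO, against 191.1, 175.9, 181.7 and 168.3 CPM in CA1 neurons. That was 10.3-fold (log2 -3.37 ± 0.14, edgeR adjusted p = 3.18e-40). Kcnd2 was 3.61-fold lower with all libraries between 22.5 and 26.7 CPM, and Kcnab3 2.61-fold lower. The sodium channel beta subunit Scn3b was 2.40-fold lower.

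Higher in CA2 or CA3 were Kcnc1 (3.28-fold), Kcnq5 (3.20-fold), Kcna1 (2.83-fold), Kcnd3 (2.66-fold) and the L-type pore Cacna1c (2.50-fold). Cacna1a, the P/Q pore, held at 319.5 to 338.0 CPM against 176.4 to 226.4 CPM in CA1 neurons, 1.94-fold (edgeR adjusted p = 1.21e-18). None of the 5 sodium channel pores tested was called there. Leaving out 1 library ended the call of Kcnma1 in 3 fits, of Kcnb2, Kcns2 and Kcnt1 in 2, and of Kcnip4 (without WT) in 1.

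Subicular or cortical excitatory neurons carried more Kcnf1, Kcnt1 and BK channel RNA than CA1 neurons and less Scn3b, Kcnip2 and Kcnd2. Of 69 genes tested 17 were higher (9.73% of all genes) and 12 lower (6.85% of all genes); the median log2 difference was 0.12 against 0.00 over all. Kcnf1, a silent subunit, was 3.52-fold, Kcna6 3.44-fold and Kcnc4 3.39-fold higher. The sodium-activated potassium channel Kcnt1 was 2.65-fold higher at 120.7 to 137.3 against 38.7 to 48.3 CPM.

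Scn3b was the furthest below CA1 neurons, at 65.9 to 82.2 against 190.8 to 204.8 CPM (3.05-fold, log2 -1.61 ± 0.09, edgeR adjusted p = 4.51e-22). Kcnip2 and Kcnd2, the A-current pair, were 2.84-fold and 2.26-fold lower, and Kcnn2 1.85-fold lower. Of the BK genes the pore Kcnma1 was 1.60-fold and Kcnmb4 2.28-fold higher. No calcium channel gene and none of the 5 sodium channel pores tested was called. Leaving out 1 library ended the calls of Kcnab3 and Kcnq3 in 2 fits, and of Kcnj6 and Kcns2 (without EKO) in 1. The Prl and Gh cluster is inside this class, and its part in these differences was not tested.

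Of the 66 channel genes with at least 200 UMIs in neurons, 40 had the same highest of the 5 neuron classes in all 4 libraries, where 28.7% of all genes did. Inhibitory neurons were highest for 17 of them, dentate granule neurons for 9 (Cacna1e, Cacna1h and Scn3a among them), CA1 and subicular or cortical neurons for 6 each, and CA2 or CA3 neurons for 2, Kcnq5 and Cacna1a. Those of CA1 neurons included Kcnab1, Kcnab2, Kcnd2, Scn8a and Kcnn2. Over all genes, 2810 of 9777 had the same highest class in all 4 libraries. Inhibitory neurons led there too, with 1210, before dentate granule neurons with 816. Subicular or cortical neurons had 328, CA1 neurons 299 and CA2 or CA3 neurons 157. The split of the channel genes is thus a description and not a result about the set.

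Astrocytes lacked much of the neuronal channel RNA and had more RNA of a few potassium channel genes than neurons. Against neurons, 79 genes were tested; 4 were higher (21.1% of all genes) and 51 lower (18.9% of all genes), and the median log2 difference was -1.32 against -0.05 over all. Kcnj16, the Kir5.1 subunit that pairs with Kir4.1, stood at 59.5, 74.9, 46.6 and 113.4 CPM in WT, EKO, P301S and P301S/EKO astrocytes and at 1.42 to 3.13 CPM in neurons. That was 29.6-fold (log2 4.89 ± 0.32, edgeR adjusted p = 9.84e-22). Kcne1l (Kcne5), a single-span auxiliary subunit, was 21.4-fold higher on 37 UMIs in astrocytes. The two-pore channels Kcnk1 and Kcnk2 were 3.34-fold and 1.79-fold higher, with Kcnk2 in P301S astrocytes (90.0 CPM) below its neurons (100.5 CPM). Neither is particular to astrocytes: neurons held Kcnk1 at 63.9 to 85.1 CPM and Kcnk2 at 100.5 to 133.5 CPM.

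All 5 sodium pores, the sodium beta subunits Scn2b and Scn3b and all 8 calcium channel pores tested were lower in astrocytes. Cacna1b, the N-type pore, was 4.64-fold lower and Kcnh7 4.10-fold lower. Their remaining counts were highest in WT astrocytes (69.1 and 40.3 CPM), the library with the most mixed astrocytes. With mixed nuclei left out, 4 channel genes were higher and 53 lower, beside 2707 higher and 2618 lower of 12094 genes in all. Judged by the adjusted p alone, 8 of the 55 calls were lost in at least 1 fit without a library. All were of genes lower in astrocytes (Hcn3, Kcnj12, Kcnv2, Cacna1i, Kcns2, Kcng1, Kcng2 and Kcnv1).

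Oligodendrocytes and microglia differed from neurons in few channel genes, and both held many nuclei with neuronal transcripts. In oligodendrocytes 78 genes were tested, with 3 higher (4.9% of all genes) and 4 lower (1.09% of all genes), and a median log2 difference of -0.15 against -0.01 over all. Kcnk13, a two-pore channel, stood at 12.6, 27.5, 26.7 and 16.2 CPM against 3.24 to 4.69 CPM in neurons (4.84-fold, log2 2.28 ± 0.34, edgeR adjusted p = 1.85e-07). Kcna1, the Kv1 pore of the myelinated axon, was 1.80-fold higher at 240.6 to 342.2 against 138.6 to 193.8 CPM. Hcn2 was 1.52-fold higher, a call lost in 3 of 4 fits without a library and with mixed nuclei left out (edgeR adjusted p = 0.108). Cacna1b, Kcnh7, Kcnc2 and Kcnmb2 were lower, the last on 3 UMIs and lost in every fit without a library; Cacna1b and Kcnc2 were lost in 2 such fits and Kcnh7 in 1. With mixed nuclei left out, 2 genes were higher and 17 lower, and genes lower over the whole table rose as well, from 128 of 11728 to 659 of 11448.

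Microglia, with 79 genes tested, had 2 higher (10.7% of all genes) and 6 lower (2.58% of all genes), and a median log2 difference of -0.34 against -0.01 over all. Kcnk13, known there as the channel THIK-1 that keeps microglia surveying, stood at 24.5, 24.9, 19.9 and 35.3 CPM, 6.14-fold above neurons (log2 2.62 ± 0.26, edgeR adjusted p = 2.29e-10) with no overlap. Hcn2 was 1.52-fold higher and lost its call with mixed nuclei left out (edgeR adjusted p = 0.270). The lower genes included Kcnq5, Kcnc2, Scn9a, Kcnip4 and Kcnn2. The calls of Hcn2 and Scn9a were lost in 2 fits without a library and that of Kcnn2 in 1, while 12 genes were lower without WT. Leaving out mixed nuclei gave 1 higher and 28 lower, and over all genes the number lower rose from 314 of 12181 to 1142 of 11794. Kcnk6, another two-pore gene, had 23 of its 52 UMIs in microglia and was too sparse to test.

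Oligodendrocyte precursors, with 77 genes tested, had 2 higher (4.6% of all genes) and 15 lower (3.99% of all genes), and a median log2 difference of -0.54 against -0.11 over all. Kcnj16 was above neurons by 3.70 ± 0.61 on the log2 scale on only 16 UMIs (edgeR adjusted p = 9.46e-08), and with mixed nuclei left out it had too few counts for a test. Kcnip3, which is also the calcium sensor DREAM, was 2.57-fold higher at 80.3, 42.0, 96.3 and 130.9 CPM against 27.4 to 34.1 CPM, a call lost without P301S/EKO. Of the sodium channel genes, 3 pores (Scn1a, Scn2a1, Scn8a) and the beta subunit Scn2b were lower, though Scn1a and Scn8a lost the call in 2 fits without a library. Of all 17 calls in precursors, 9 did not keep an adjusted p under 0.05 in every edgeR fit without a library. Only 5 of the 17 had an adjusted p under 0.05 in DESeq2. The T-type pore Cacna1i was lower with 0 UMIs in the 4 libraries, which allows up to 20.1 to 32.1 CPM per library, so no fold is given. With mixed nuclei left out, 1 gene was higher and 25 lower, while all genes lower rose from 457 of 11465 to 887 of 11228.

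In endothelial nuclei 2 inward rectifiers were above neurons and most of the set was below them. Of 78 genes tested 2 were higher (25.2% of all genes) and 60 lower (26.1% of all genes), with a median log2 difference of -1.46 against -0.11 over all. Kcnj8, the pore of a vascular ATP-sensitive channel, stood at 54.2, 69.3, 40.2 and 99.5 CPM in WT, EKO, P301S and P301S/EKO and at 0.335 to 1.21 CPM in neurons, 64.1-fold (log2 6.00 ± 0.44, edgeR adjusted p = 2.69e-41). Kcnj8 is best known from pericytes, and the mural marker Rgs5 was among this class's leading genes, after Cldn5 and Ly6c1; the share of mural nuclei was not tested. Kcnj13 was 2.98-fold higher at 11.8 to 31.5 against 3.88 to 9.47 CPM, and reversed (log2 -0.55) when channel genes were kept in the clustering. All 4 Kv1 pores and all 5 sodium pores tested were lower, Scn1a by 4.55-fold. Of the 62 calls 13, all of genes lower in this class, were lost in at least 1 fit without a library, judged by the adjusted p alone.

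**Figure D4:**
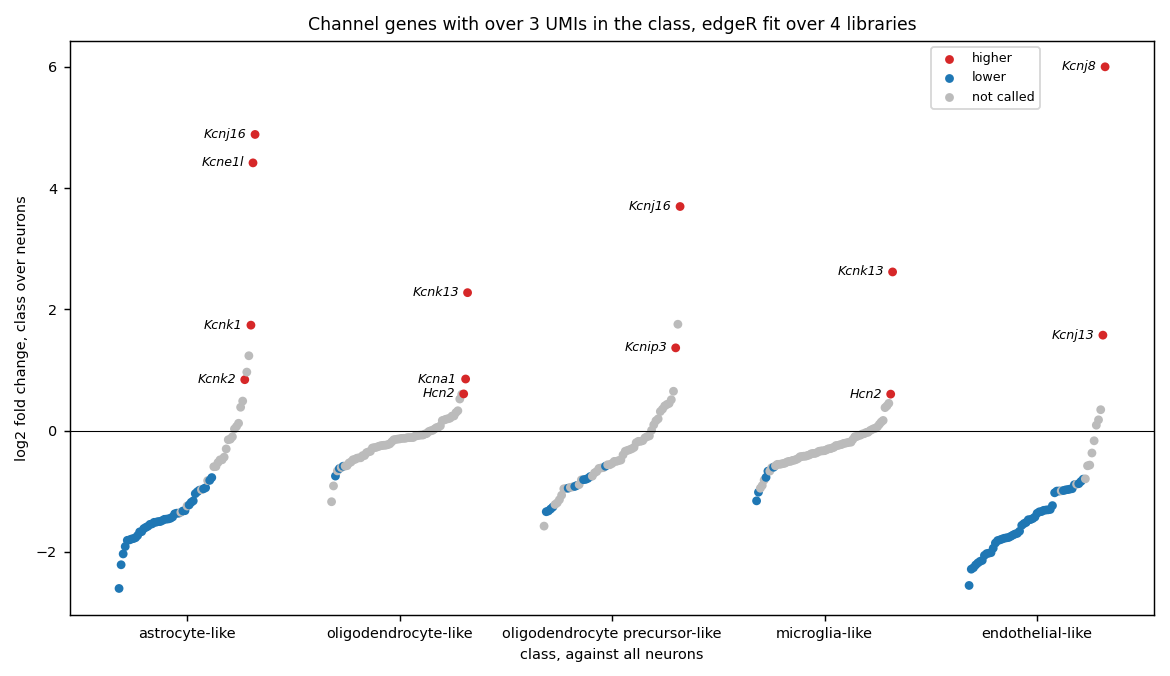
Log2 fold of each channel gene in 5 glial and vascular classes over neurons, with 1 point per gene and class for genes with more than 3 UMIs in the class. Kcnj8 in endothelial nuclei, Kcnj16 and Kcne1l in astrocytes, Kcnj16 in precursors and Kcnk13 in microglia and oligodendrocytes stand above the rest, and astrocyte and endothelial points lie mostly below 0.

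Partner proteins that traffic, anchor or gate these channels were read from a list of 30 genes that are not members of the set. Unlike the channel genes, these were not left out of the clustering, so their differences are not independent of the classes. Against excitatory neurons, inhibitory neurons had 7 of 28 tested higher and 5 lower (10.5% and 11.3% of all genes). Cacna2d2, a calcium channel subunit, was 11.3-fold higher, and it was among the leading genes of an inhibitory cluster. Pex5l (TRIP8b), the HCN auxiliary subunit, was 3.84-fold lower in inhibitory neurons, where Hcn2 and Hcn3 were higher. It was 7.11-fold lower in dentate granule neurons and 7.66-fold lower in CA2 or CA3 neurons than in CA1 neurons. In dentate granule neurons 3 of 24 partners were higher and 4 lower (all genes 9.02% and 9.78%), and in CA2 or CA3 neurons 4 of 24 and 2 (8.04% and 6.7%). Subicular or cortical neurons had 7 of 27 higher and 3 lower (9.73% and 6.85%), with Dpp10, a Kv4 partner, 8.55-fold higher. Against neurons, 0 of 28 were higher and 18 lower in astrocytes (all genes 21.1% and 18.9%), and 0 of 27 and 23 in endothelial nuclei (25.2% and 26.1%). The counts were 0 of 27 and 1 in oligodendrocytes (4.9% and 1.09%), 1 of 28 and 6 in precursors (4.6% and 3.99%), and 0 of 29 and 2 in microglia (10.7% and 2.58%). The 1 higher partner in precursors was Cacng4, 25.4-fold.

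The channel genes are long, which matters in nuclei because unspliced RNA of long genes can add to counts if introns are counted; whether they were is not given in the sources used here. On GENCODE M21 (GRCm38) the median span was 59.6 kb for the 90 genes and 24.2 kb for all genes with the same UMI minimum, and 38.9% against 15.3% spanned at least 100 kb. Kcnip4 was the longest at 1135 kb (chr5:48389502-49524907). How strand was used in counting is not given either, so reads of Kcnq1ot1, Kcnd3os and Kcnmb4os2 cannot be told from those of the genes they overlap. Kcnq1 had 7 UMIs over the 4 libraries and Kcnq1ot1 32369, and the part of strand was not tested. Of the 90 genes 8 had too few counts for any class test: Kcnh4, Kcnh5, Kcnh8, Kcng4, Kcnk4, Kcnk6, Scn7a and Kcnd3os, with 52 to 153 UMIs in all.

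Between genotypes few channel genes moved. The tau transgene was read as P301S over WT and as P301S/EKO over EKO, and the loss of Apoe as EKO over WT and as P301S/EKO over P301S. A gene was counted where both ratios were at least 1.5-fold the same way, among genes with at least 100 UMIs in the class; the 2 ratios of a factor share no library, but the 2 factors use the same 4. Over 9 classes there were 331 pairs of a channel gene and a class. For the transgene 7 moved, 3 up and 4 down (all genes: 2.51% of 45086 pairs), and for Apoe loss 11, 1 up and 10 down (all genes: 2.56%). These counts are small and near what the background share gives, so they are described as single values and not as a result about the set.

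By class, all genes counted for the transgene made up 1.9% in granule neurons of the dentate gyrus. The share was 1.62% in CA1 neurons, 1.54% in the CA2 or CA3 class, 1.34% in the subicular or cortical class and 1.07% in inhibitory neurons. It was 13% in astrocytes, 2.95% in oligodendrocytes, 3.61% in microglia and 5.32% in endothelial nuclei. For Apoe loss it was 1.98% in granule neurons, 2.11% in CA1 neurons, 2.05% in the CA2 or CA3 class, 1.81% in the subicular or cortical class and 2.33% in inhibitory neurons. In astrocytes it was 5.66%, in oligodendrocytes 3.47%, in microglia 3.68% and in endothelial nuclei 3.38%. Channel genes counted for the transgene were 2 of 48 in dentate granule neurons, 1 of 62 in subicular or cortical neurons, 1 of 8 in astrocytes, 2 of 32 in oligodendrocytes, 1 of 2 in endothelial nuclei and 0 in the other 4 classes. For Apoe loss they were 2 of 48 in granule neurons, 1 of 44 in CA1 neurons, 1 of 46 in the CA2 or CA3 class and 1 of 47 in inhibitory neurons, 3 of 8 in astrocytes, 1 of 32 in oligodendrocytes and 2 of 42 in microglia.

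With the transgene, Kcnh1, a Kv10 pore, was higher in subicular or cortical neurons. It stood at 17.9 CPM in WT and 15.5 in EKO against 37.1 in P301S and 34.9 in P301S/EKO. The ratios were 2.07 (1.41 to 3.06) and 2.24 (1.44 to 3.56), with 95% intervals that cover counting error only, as do all intervals here. Cacna1h was higher in dentate granule neurons, at 109.6 (WT) and 106.5 CPM (EKO) against 183.2 (P301S) and 162.5 CPM (P301S/EKO), ratios of 1.67 and 1.53. Kcnv1 in dentate granule neurons was lower, at 27.2, 37.6, 9.82 and 20.1 CPM in WT, EKO, P301S and P301S/EKO, but the P301S value rests on 3 UMIs. Cacna1e in astrocytes, Scn3a in oligodendrocytes and Scn2a1 in endothelial nuclei were lower as well, the last at 186.0, 151.3, 80.3 and 49.8 CPM. Scn3a met the rule in 3 of 8 other settings, and those with a lower UMI or fold limit could not fail. Mixed endothelial nuclei made up 29.5% in WT against 8.07% in P301S, and 9.24% in EKO against 8.60% in P301S/EKO, so neuronal transcripts moved with the first ratio of Scn2a1; their part was not tested.

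With Apoe loss, the KChIP gene Kcnip4 was lower in 3 classes. In CA1 neurons it stood at 64.7 CPM in WT and 102.4 in P301S against 39.6 in EKO and 29.7 in P301S/EKO. Lower folds were 1.63 (1.13 to 2.40) and 3.45 (2.25 to 5.38). In dentate granule neurons the order WT, EKO, P301S, P301S/EKO gave 76.1, 48.8, 88.3 and 35.2 CPM and in microglia 42.8, 18.6, 36.2 and 13.4 CPM. In subicular or cortical neurons 57.6, 43.1, 70.3 and 33.8 CPM went the same way without reaching 1.5-fold in both ratios. CA2 or CA3 neurons gave 33.8, 30.7, 57.4 and 15.1 CPM, so EKO lay close to WT there. Both Apoe-free libraries are also the shallower ones, and Kcnip4 is the longest gene of the set; the part of either was not tested. In microglia the share of mixed nuclei was lower without Apoe as well (78.5%, 42.6%, 64.9% and 52.3% in the same order), and its part was not tested. Under the 10 other settings that gave a value, the CA1 difference met the rule of the setting in 10. The other UMI limits, the lower fold limit and leaving out mixed nuclei (a rule not applied to neurons) could not change this.

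Kcnh3 was the 1 gene higher with Apoe loss, in dentate granule neurons, at 59.4 (EKO) and 64.5 CPM (P301S/EKO) against 35.3 (WT) and 16.4 CPM (P301S, on 5 UMIs). In inhibitory neurons Cacna1e was lower, at 71.0, 40.2, 113.0 and 54.1 CPM in WT, EKO, P301S and P301S/EKO. The lower folds were 1.77 (1.18 to 2.68) and 2.09 (1.48 to 3.00). In that order Sst interneurons gave 84.4, 37.0, 88.0 and 54.3 CPM. Vip or Cck interneurons gave 44.9, 28.4, 86.9 and 34.4 CPM. Pvalb interneurons gave 18.6, 20.8, 82.8 and 30.7 CPM, so EKO was not below WT there. The part of library depth and of the mix of subtypes was not tested. In CA2 or CA3 neurons the rectifier Kcnj9 was lower, at 46.3, 30.0, 42.8 and 23.4 CPM. In astrocytes Cacna1e, Scn8a and the antisense RNA Kcnq1ot1 were lower, Kcnq1ot1 at 445.3, 266.7, 383.1 and 157.9 CPM. The share of mixed astrocytes was also lower in the libraries without Apoe (20.8%, 0.505%, 7.63% and 2.96% in that order), and its part was not tested. The Cacna1e, Scn8a and Kcnq1ot1 values in astrocytes met the rule in 5 of 8, 4 of 8 and 6 of 10 other settings. In these counts and the next, settings with a lower UMI or fold limit could not fail. Kcnh7 in oligodendrocytes (3 of 8 other settings) and Cacna1b in microglia (6 of 9) were lower too. The share of mixed nuclei moved the same way in both classes: in oligodendrocytes it was 70.3% and 66.9% with Apoe against 46.4% and 53.1% without it, and the microglial shares are given above. Their part was not tested.

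**Figure D5:**
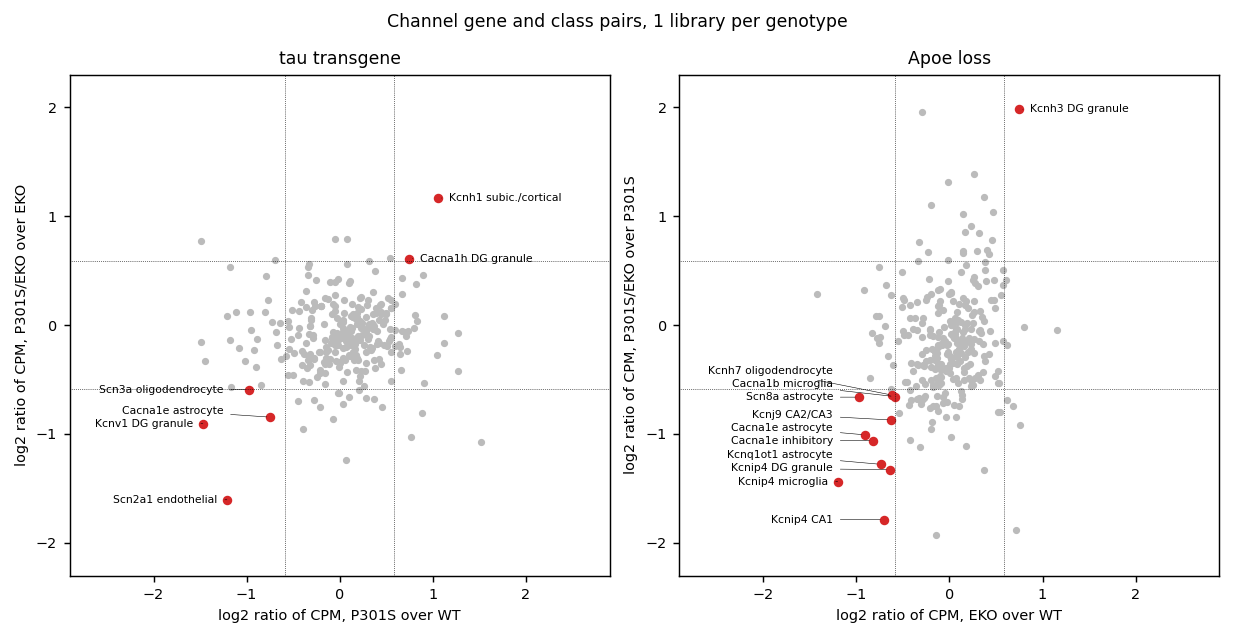
Log2 ratio of each channel gene and class in the 2 comparisons of the tau transgene (left) and of Apoe loss (right), with 1 point per gene and class. Pairs counted as moved are red and named, 6 drawn for the transgene and 11 for Apoe loss; thin lines mark 1.5-fold and the other pairs are grey.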

How the data were processed

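The members and gene lists were chosen with earlier results of these data known. Some members are counted but not reported by name here or drawn. Nuclei were prepared on a sucrose cushion and sequenced with a droplet 3′ kit, per the labels' protocols. The authors deposited raw UMI counts per gene and barcode, 1 matrix per library; Cell Ranger, Seurat and mm10 are named in the submitters' processing notes without versions, and the handling of introns and strand is not given in the sources used here.

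A barcode was kept if it had 200 genes or more and no more than 5% of UMIs from mitochondrial genes. Scrublet made 0 calls of its own, so the nuclei with the highest scores were removed, 0.8% per 1000 barcodes in a library. Nuclei were clustered with scanpy 1.11.5 (2000 variable genes without the channel genes, 30 components, 15 neighbours, resolution 1). A cluster was named for the marker set with the highest mean among sets with at least 3 markers up by 1.5-fold; this tie rule was set after a first clustering and before channel values were read. Neuron subtypes in the inhibitory class were named the same way. Counts were summed per class and library, given as CPM, and tested in edgeR 4.0.16 (R 4.3.3; quasi-likelihood, TMM, library block, at least 20 nuclei per sum), fitted on all genes. Named genes were a fixed set of textbook roles, the 3 called genes of largest fold per contrast and direction, and genes moved between genotypes; a few others were named for family completeness. Genotype ratios have exact conditional binomial intervals at 95% and a floor of 3 counts for zeros; classes needed at least 50 nuclei per library. The minimums of 200 and 100 UMIs in the class-order and subtype descriptions, the 500-UMI figure, gene span, the motifs and the promoters shown were chosen after the data were seen. Libraries carry no replicate numbers beyond 1.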

Additional observations from a re-analysis of the deposited data

Results flagged for a closer look

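Some genes moved in opposite directions in the 2 comparisons of 1 factor, by at least 1.5-fold each way; these differences were not tested, since each ratio sets 1 library against 1. For the tau transgene (log2 of P301S over WT, then of P301S/EKO over EKO), microglia gave -0.69 and 0.60 for Cacna1g, 1.52 and -1.07 for Hcn2, and 0.89 and -0.81 for Kcna6. CA2 or CA3 neurons gave 0.76 and -1.03 for Kcnip4, and oligodendrocytes -1.49 and 0.77 for Kcnj3. For Apoe loss (log2 of EKO over WT, then of P301S/EKO over P301S), subicular or cortical neurons gave 0.69 and -0.75 for Cacna1i and inhibitory neurons 0.76 and -0.92 for Kcnh1. Microglia gave 0.71 and -1.88 for Hcn2 and 0.62 and -0.69 for Kcnma1. Hcn2 in microglia was highest in P301S (76.0 CPM) and lowest in P301S/EKO (20.7 CPM), with 26.5 in WT and 43.5 in EKO.

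Choroid plexus nuclei, which entered no comparison, carried high Kcnj13 RNA, the Kir7.1 rectifier of that epithelium. It stood at 402.6 CPM in WT (10 nuclei), 854.1 in P301S (43 nuclei) and 516.4 in P301S/EKO (16 nuclei); EKO had 0 such nuclei. In neurons it was 3.88 to 9.47 CPM.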

How the results depend on the processing

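Over all other settings, 3448 recomputed gene calls kept direction and threshold, 305 lost the threshold and 1 reversed. Leaving out mixed nuclei could not change calls between neuron classes, because the mixed rule was applied to non-neuronal nuclei only. Those calls still count as kept. The reversed call was Kcnj13 in endothelial nuclei, log2 -0.55 with channel genes kept in the clustering. That setting also left 1 endothelial gene higher instead of 2. For genotype values 131 met the rule of their setting and 29 did not. A lower UMI or fold limit could not end a counted value, so those passes were fixed in advance. The causes were not tested. Oligodendrocyte genes lower were 4, and 2 with DESeq2, 1 without the library block, 2 with doublets kept, 8 with channel genes in the clustering, 17 without mixed nuclei and 1 to 5 with 1 library left out. Precursor genes higher were 2, and 1 at 1100 UMIs or more per nucleus, 1 without mixed nuclei and 1 to 2 with 1 library left out; those lower were 15, and 3 with DESeq2, 9 at 500 genes or more, 6 at 1100 UMIs, 25 without mixed nuclei and 10 to 14 with 1 library left out. Microglia genes higher were 2, and 1 with DESeq2, 1 without the block and 1 without mixed nuclei; those lower were 6, and 12 with no count filter, 3 without the block, 28 without mixed nuclei, 12 without WT and 4 to 12 with any 1 library left out. Pairs moved with Apoe loss were 11, and 26 at 50 UMIs or more, 6 at 200, 42 at the lower fold limit tried, 7 at 500 genes, 6 at 1100 UMIs and 5 without mixed nuclei. Pairs moved with the transgene were 7, and 13 at 50 UMIs, 2 at 200, 28 at the lower fold limit and 3 without mixed nuclei. No paired analysis was possible because each genotype has 1 library with replicate number 1; the library is the block of the class tests. At this depth a zero count allows up to 3 counts.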
